A study of Mus musculus with 12 samples.

Results

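The 43 genes described here encode proteins that copy DNA or that separate the copied chromosomes, and they were read in the colon of mice lacking 1 or both of a pair of L-amino acid oxidases. The list was given by gene symbol, with 24 replication genes and 19 mitosis genes. A probe of the array carried the symbol of 41 of them, 23 replication and 18 mitosis genes, among 19505 named genes, and each had 1 probe. Mcm7 and Ccnb1 were not analysed here. The samples were whole colon from male mice of 12 to 16 weeks described as healthy: double knockout mice without IL4I1 and LAO1, LAO1 knockout mice, IL4i1 knockout mice and wild type mice. IL4I1 is an oxidase of phenylalanine made mainly by antigen-presenting immune cells, and LAO1 is the related L-amino acid oxidase known from mouse milk. The labels give no strain and no account of how the alleles were made or in which cells they act. Each genotype had 3 Affymetrix arrays. Per the labels, 4 mice were drawn from each genotype, and it is not said whether an array held RNA of 1 mouse, so the p-values reflect array-to-array spread that may be partly technical.

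Before a cell copies its genome, Cdt1 and Cdc6 load the MCM ring at origins, which then becomes the active helicase with Cdc45 and the GINS complex. Polymerases, a sliding clamp, a clamp loader, a flap nuclease and a ligase build the new strands from deoxynucleotides. In mitosis the Cdk1 and cyclin B kinase, the Aurora and Polo kinases, the checkpoint kinases at kinetochores and the spindle motors move the sister chromatids apart. In the colon, dividing cells lie mostly in the lower part of the crypts, among the stem cells and their transit-amplifying progeny, with some lymphoid cells also in cycle. Many replication genes are known targets of E2F factors, and many genes of the later cell cycle carry a CHR element, the site of the DREAM and MuvB complexes.

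All 12 arrays held values on a log2 scale that ran over 1.72 to 19.93, with array medians of 5.42 to 5.49. Markers of colon epithelium were bright in each array: Cdh17 averaged 17.77 and Krt8 averaged 17.65, and the mean over 10 measured colon identity genes lay between 10.5 and 11.01. Lao1 averaged 3.4 in double knockout, 3.01 in LAO1 knockout and 3.16 in IL4i1 knockout arrays, against 3 in wild type arrays, near the bottom of the scale in every genotype, so it does not check the labels. Il4i1 was not analysed here. In principal components of all 22206 probes, 3 arrays stood apart. IL4i1 knockout replicate 2 lay at 68.9 on the first component, where the other 11 arrays ran over -40 to 20.7. Double knockout replicate 1 lay at 61.7 on the second component and double knockout replicate 2 at 56.8 on the third. Double knockout replicate 2 also held genes of pancreatic acinar cells, with a mean of 14.43 over 11 such genes against 4.36 to 4.99 in the other 11 arrays. The medians of both arms are therefore also given without the array concerned, and leaving out an array leaves fewer values in its genotype.

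Promoter sequences are shown for the 3 genes of each arm that had the smallest p in double knockout against wild type among those holding one of the motifs searched. They come from RefSeq on GRCm38.p6 and cover 300 bases, 250 before and 50 after the start. A promoter was listed for 19 replication and 15 mitosis genes. The letters TTTCGCGC, TTTGGCGC and TTTCCCGC were searched as E2F sites and TTTGAA as the CHR element, each on both strands, and matches could overlap. Capitals mark the matched letters, and each sequence reads 5′ to 3′ on the strand of its gene. Fen1, the flap endonuclease that trims the ends of Okazaki fragments, is on the minus strand at chr19:10204344-10204643, with a CHR match on the other strand at -124 to -119 from the start; a second RefSeq promoter of Fen1 held no match.
Fen1: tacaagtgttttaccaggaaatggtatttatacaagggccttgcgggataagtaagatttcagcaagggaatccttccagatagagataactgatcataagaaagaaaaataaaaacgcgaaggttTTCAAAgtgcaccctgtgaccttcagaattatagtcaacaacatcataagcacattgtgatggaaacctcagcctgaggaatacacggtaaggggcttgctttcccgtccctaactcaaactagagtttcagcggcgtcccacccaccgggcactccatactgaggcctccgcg
Mcm6, a helicase subunit, is on the minus strand at chr1:128359656-128359955 and held 3 E2F matches, 2 of which overlap.
Mcm6: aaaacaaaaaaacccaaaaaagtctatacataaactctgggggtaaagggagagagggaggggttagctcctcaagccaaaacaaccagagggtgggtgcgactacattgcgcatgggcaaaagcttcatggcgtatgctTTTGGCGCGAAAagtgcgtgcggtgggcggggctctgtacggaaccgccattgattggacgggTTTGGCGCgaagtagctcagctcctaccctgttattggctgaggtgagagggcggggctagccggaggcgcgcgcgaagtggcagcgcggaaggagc
Cdt1, the loading factor, is on the plus strand at chr8:122567765-122568064, with 1 E2F match from base 33 to base 40 after the start.
Cdt1: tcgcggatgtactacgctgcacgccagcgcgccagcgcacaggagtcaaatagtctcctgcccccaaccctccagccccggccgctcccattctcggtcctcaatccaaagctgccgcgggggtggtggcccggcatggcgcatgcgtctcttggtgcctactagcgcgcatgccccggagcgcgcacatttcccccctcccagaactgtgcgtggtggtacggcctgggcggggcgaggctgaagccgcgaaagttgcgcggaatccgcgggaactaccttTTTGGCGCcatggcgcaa
Top2a, the topoisomerase that unlinks sister chromatids, is on the minus strand at chr11:99024140-99024439, with 2 CHR matches.
Top2a: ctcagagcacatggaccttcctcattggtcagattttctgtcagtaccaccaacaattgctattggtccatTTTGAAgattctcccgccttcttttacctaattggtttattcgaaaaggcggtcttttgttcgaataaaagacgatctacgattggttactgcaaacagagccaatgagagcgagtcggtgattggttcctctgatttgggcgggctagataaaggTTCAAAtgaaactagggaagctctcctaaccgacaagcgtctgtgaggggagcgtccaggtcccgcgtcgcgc
Cenpf, a kinetochore protein, is on the minus strand at chr1:189688037-189688336, with 1 CHR match from base 3 to base 8 after the start.
Cenpf: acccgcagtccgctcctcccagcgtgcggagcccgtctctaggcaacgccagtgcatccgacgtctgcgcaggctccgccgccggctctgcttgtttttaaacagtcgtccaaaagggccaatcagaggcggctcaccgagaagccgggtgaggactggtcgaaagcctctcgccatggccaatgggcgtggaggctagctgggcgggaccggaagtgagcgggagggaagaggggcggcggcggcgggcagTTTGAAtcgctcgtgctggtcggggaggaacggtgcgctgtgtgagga
Plk1, the Polo kinase of mitotic entry, is on the plus strand at chr7:122159185-122159484, with 1 CHR match from base 31 to base 36.
Plk1: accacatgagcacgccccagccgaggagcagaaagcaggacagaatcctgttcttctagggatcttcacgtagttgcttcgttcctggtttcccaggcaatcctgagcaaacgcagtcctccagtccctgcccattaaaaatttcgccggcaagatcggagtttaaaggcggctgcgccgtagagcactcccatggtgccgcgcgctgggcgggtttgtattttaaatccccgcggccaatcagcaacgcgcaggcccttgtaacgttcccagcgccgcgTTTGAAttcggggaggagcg
Over the whole list the arms differed in which letters they held. An E2F match lay in the promoters of 9 of 19 replication genes (47.4%) and 1 of 15 mitosis genes (6.67%, Cdk1), against 2.91% of 15691 array genes with a promoter entry. A CHR match lay in 3 replication genes (15.8%) and 11 mitosis genes (73.3%), against 17.8% of the array genes. These are matches of letters, not measured sites.

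**Figure D1:**
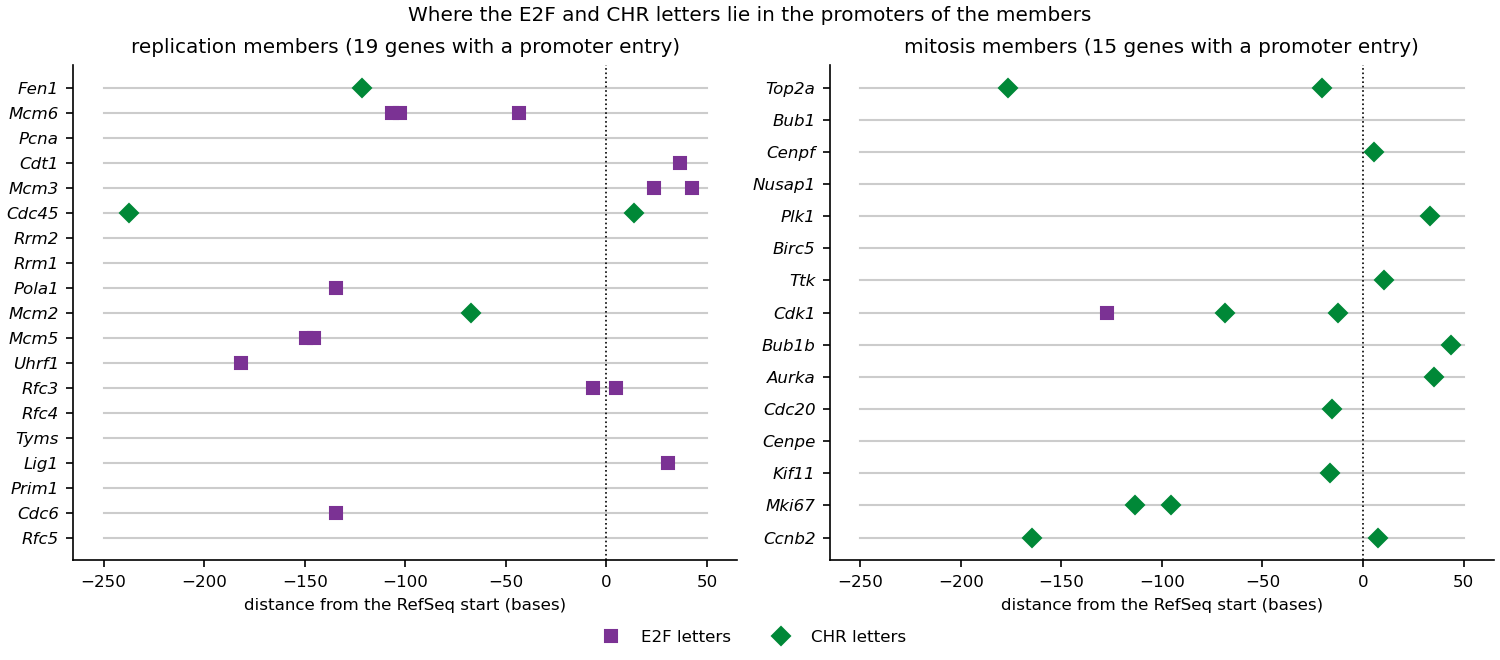
Positions of E2F letters (squares) and CHR letters (diamonds) in the listed promoters, by distance in bases from the RefSeq start, for 19 replication genes and 15 mitosis genes. E2F letters are in 9 replication genes and 1 mitosis gene, and CHR letters in 3 replication genes and 11 mitosis genes.

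The first comparison asked how the double knockout colon differed from wild type. All 23 measured replication genes had a higher mean in double knockout, as did 50.1% of all probes, with a median log2 difference of 0.8 and a range of 0.04 to 1.78, where the median over all probes was 0. No replication gene passed limma's test at an adjusted p of 0.05, a threshold that 0.0225% of all probes met. At an unadjusted p of 0.05, 13 of 23 were higher, against 3.63% of all probes, and in 10 of 23 every double knockout array lay above every wild type array, against 5.68% of all probes. In whole tissue, a change in the number of cells of a type and a change in RNA per cell cannot be told apart.

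At the flap and clamp step, Fen1 read 6.74, 6.11 and 6.67 in double knockout arrays, against 5.16, 4.66 and 4.37 in wild type arrays. Every double knockout array lay above every wild type array, and the log2 difference was 1.78 ± 0.28 (SE, 3.43-fold, limma adjusted p = 0.0692). Pcna, the sliding clamp, read 12.78, 11.74 and 12.56 in double knockout and 11.35, 11.03 and 11.55 in wild type, a log2 difference of 1.05 ± 0.26 (SE, adjusted p = 0.368). Both genes kept their groups apart, Pcna with the narrower gap. The clamp loader subunits were closer to wild type, at 0.4 for Rfc3, 0.43 for Rfc4 and 0.04 for Rfc5, and their arrays overlapped. Lig1, the ligase that seals the fragments, was at 0.25.

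Among the helicase genes, Mcm6 read 10.67, 9.04 and 9.98 in double knockout arrays, against 8.69, 7.9 and 7.88 in wild type arrays, with no overlap, a log2 difference of 1.74 ± 0.34 (SE, 3.34-fold) and a limma adjusted p of 0.21. Mcm3 read 8.4, 6.75 and 6.71 in double knockout and 6.22, 5.89 and 5.56 in wild type, and Mcm4 read 8.67, 7.37 and 7.7 in double knockout and 7.24, 6.53 and 6.18 in wild type. In both, replicate 1 of the double knockout was by far the highest array while the other two lay closer to wild type, with log2 differences of 1.4 ± 0.4 and 1.26 ± 0.38 (SE). Mcm5 was at 0.99 and Mcm2 at 0.73. Cdc45, which activates the ring, read 7.03, 6.71 and 6.77 in double knockout, against 6.34, 5.47 and 6.01 in wild type. Its double knockout arrays lay close together, at 6.84 ± 0.17 against 5.94 ± 0.44 in wild type (SD, n = 3 each). The GINS subunits, which bind with it, were at 0.19 for Gins1 and 0.47 for Gins2.

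Of the licensing pair, Cdt1 read 8.3, 7.47 and 7.51 in double knockout arrays, against 6.77, 6.7 and 7.13 in wild type arrays, a log2 difference of 0.89 ± 0.25 (SE, limma adjusted p = 0.401). Cdc6 was at 0.2 and its arrays overlapped. Rrm2, the small subunit of the ribonucleotide reductase that makes deoxynucleotides, read 9.26, 7.65 and 8 in double knockout and 7.49, 7.12 and 7.04 in wild type, a difference of 1.09 ± 0.34 (SE). Its partner Rrm1 was at 1.13, with groups apart, and Tyms, which makes thymidylate, at 0.36. Of the polymerases, Pola1, the catalytic subunit that extends primers, was at 0.84, its primase partner Prim1 at 0.54 and Pole, the leading strand enzyme, at 0.5. Uhrf1, which brings the maintenance DNA methyltransferase to new strands, was at 0.8.

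The mitosis genes were mixed in the same comparison. Their median log2 difference was 0.32 with a range of -0.43 to 1.21; 15 of 18 were positive, none passed limma's adjusted threshold, 1 reached an unadjusted p of 0.05 and 1 kept its groups apart, shares near the 3.63% and 5.68% of all probes. Top2a had the smallest p, with 10.48, 8.69 and 9.98 in double knockout, against 8.39, 8.43 and 8.7 in wild type (log2 difference 1.21 ± 0.46, SE, adjusted p = 0.58). Replicate 2 of the double knockout lay inside the wild type range. Nusap1, a spindle microtubule protein, was the gene whose groups did not overlap, at 8.84, 8.12 and 8.02 in double knockout against 7.94, 7.94 and 7.88 in wild type.

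The kinases followed replicate 1. Bub1, a checkpoint kinase, read 9.4, 7.88 and 8.35 in double knockout and 8.36, 7.77 and 7.38 in wild type. Plk1 read 12.48, 10.54 and 10.56 in double knockout and 11.07, 10.65 and 10.1 in wild type. Aurkb, the kinase of the chromosomal passenger complex, read 8.81, 7.38 and 7.68 in double knockout and 7.58, 7.62 and 6.92 in wild type. In all 3 genes the other double knockout arrays lay within or just above the wild type range. Mki67, the Ki-67 protein used as a marker of cycling cells, read 15.96, 14.03 and 14.28 in double knockout, against 15.36, 14.77 and 14.2 in wild type. Its arrays overlapped, and its difference was -0.02 ± 0.49 (SE). Cenpf read 6.05, 5.52 and 5.62 in double knockout and 6.09, 6.52 and 5.86 in wild type, a difference of -0.43 ± 0.26 (SE, adjusted p = 0.759), the lowest of the arm.

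**Figure D2:**
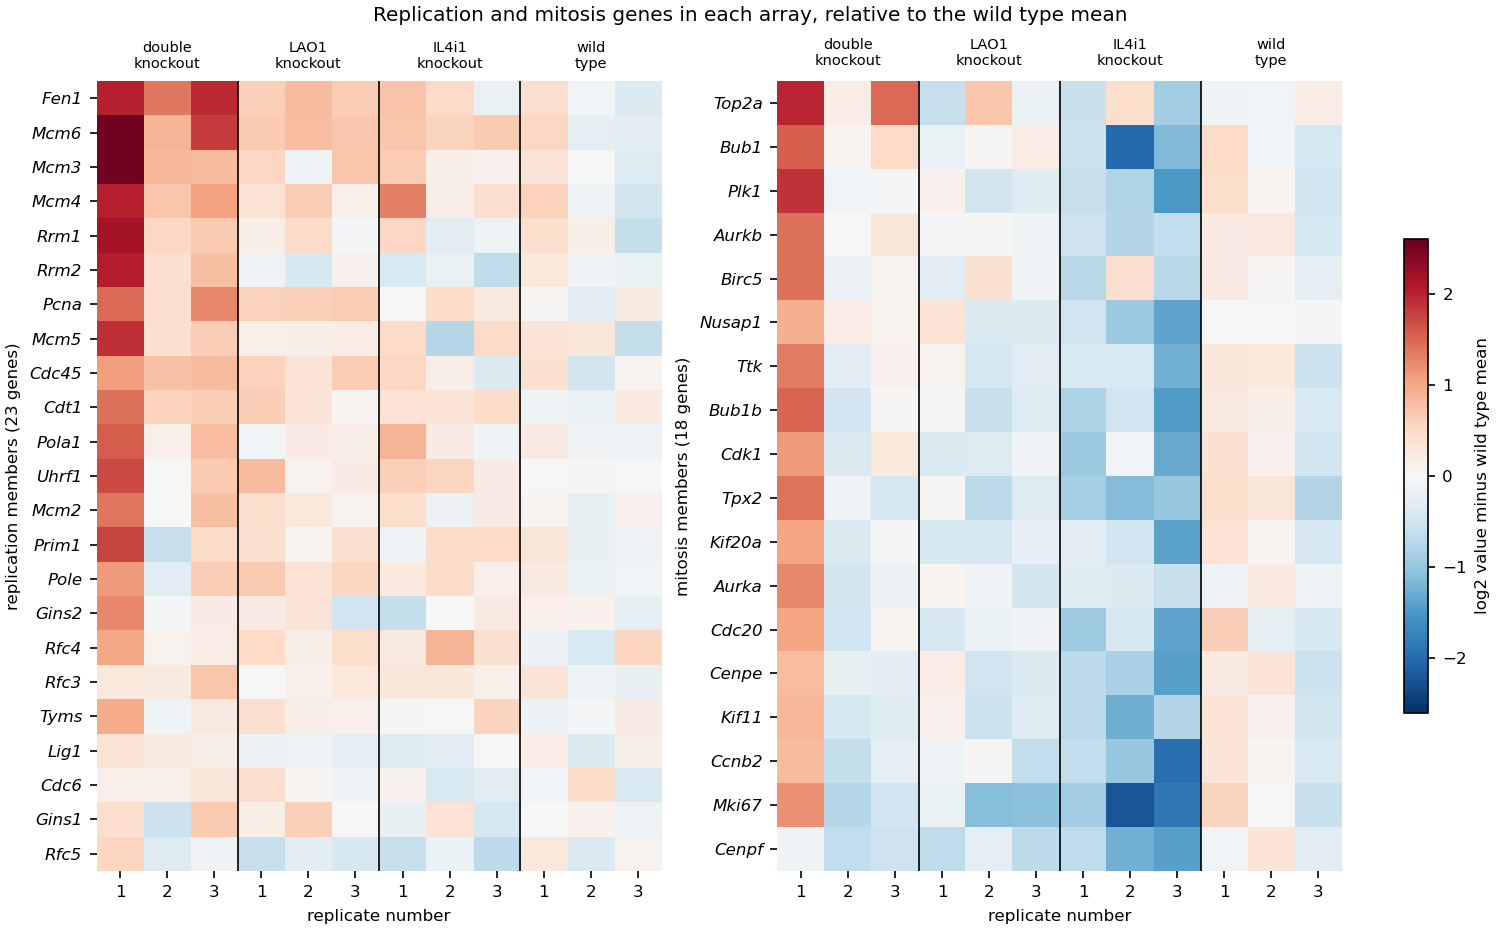
Log2 value of each of 23 replication genes (left) and 18 mitosis genes (right) minus that gene's wild type mean, by array, with genes ordered by their double knockout difference. Double knockout replicate 1 is the reddest column in both panels, and IL4i1 knockout columns are mostly blue in the mitosis panel.

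Double knockout replicate 1 was the highest of 12 arrays in 20 of 23 replication and 17 of 18 mitosis genes. The mean over the replication genes was 7.82, 6.7 and 7.15 in double knockout arrays, against 6.65, 6.34 and 6.34 in wild type arrays. Over the mitosis genes it was 9.2, 7.73 and 8.03 in double knockout, against 8.29, 8.12 and 7.62 in wild type. Without double knockout replicate 1 the replication median was 0.47, with 21 of 23 genes positive and 8 at an unadjusted p of 0.05. The mitosis median without it was -0.21, with 4 of 18 positive, and it was 0.1 without wild type replicate 3. Without replicate 2, the array with acinar genes, the medians were 1.09 for replication and 0.54 for mitosis. Mcm6, Pcna and Fen1 then passed the test, in a setting that called 38 of all probes against 5 with all arrays. The calls of Mcm6 and Pcna rest on leaving that array out, while Fen1 passed in 3 alternative settings, this one included.

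**Figure D3:**
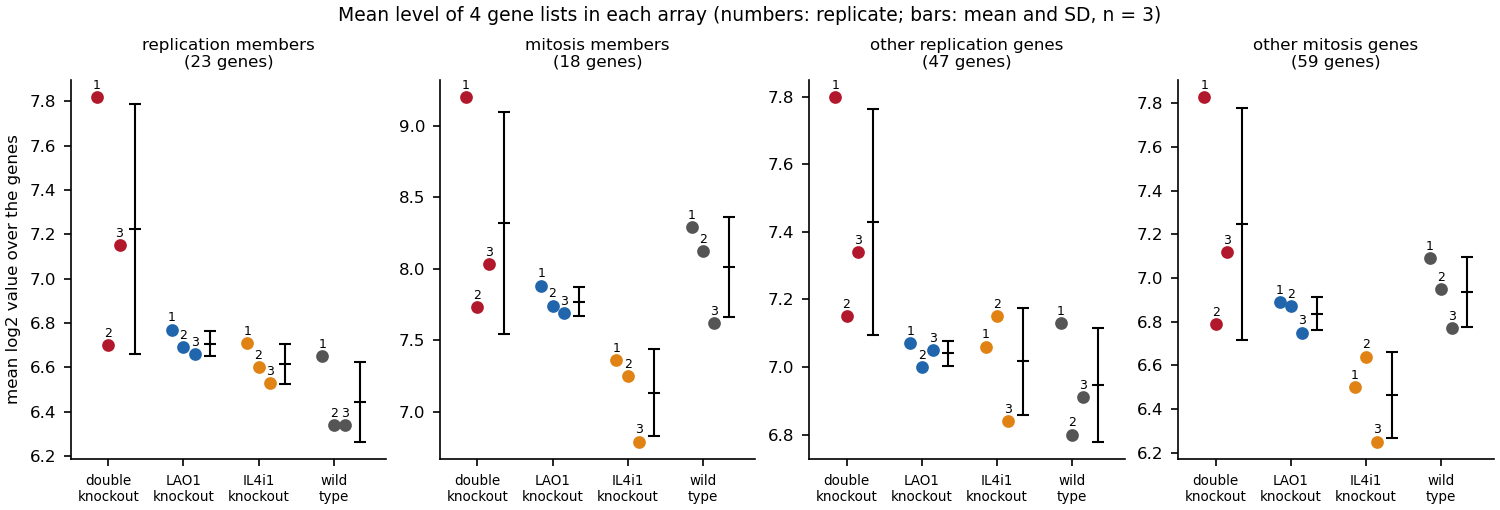
Mean log2 value over the measured genes of 4 lists in each array (points, numbered by replicate), with the mean and SD of 3 arrays per genotype (bars). In the replication panel all double knockout points, at 6.7 to 7.82, lie above the wild type points, at 6.34 to 6.65; in the mitosis panel the IL4i1 knockout points, at 6.79 to 7.36, lie below the wild type points, at 7.62 to 8.29.

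Other genes of the same pathways were taken from separate lists. Means over the other replication genes were 7.8, 7.15 and 7.34 in double knockout, against 7.13, 6.8 and 6.91 in wild type. Over the other mitosis genes they were 7.83, 6.79 and 7.12 in double knockout, against 7.09, 6.95 and 6.77 in wild type. Double knockout replicate 1 was the highest array in both lists. Replicate 2 lay just above wild type in the replication list and inside the wild type range in the mitosis list. The lists are not given without replicate 1. Of 47 other replication genes, 44 were positive in double knockout against wild type with a median of 0.46; none passed the test, 14 were higher at an unadjusted p of 0.05 and 15 kept their groups apart, against 3.63% and 5.68% of all probes. Those with the smallest p were Rpa1, the single-strand binding protein, at 1.18, Clspn, an adaptor of the replication checkpoint, at 1.33, the maintenance methyltransferase Dnmt1 at 0.91 and the fork protein Timeless at 0.86. Of 59 other mitosis genes, 49 were positive with a median of 0.32; none passed and 3 were higher at an unadjusted p of 0.05, a share near that of all probes. These were the chromokinesin Kif22 at 0.93, the condensin subunit Ncaph at 1.01 and the checkpoint protein Mad2l1 at 0.79; Cenpn, next in order at 0.47, had an unadjusted p of 0.0522. Of 33 cell cycle regulators, 20 were positive with a median of 0.07; none passed and 6 were higher at an unadjusted p of 0.05, against 3.63% of all probes. These included Tfdp1, the E2F partner, at 0.82, the Cdk1 inhibitor kinase Wee1 at 0.74, and the repressors E2f8 at 1.06 and E2f7 at 0.61.

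Markers of other cells moved with some of these arrays, and their part in the result was not tested. The mean of 12 T and cytotoxic cell genes was 4.72, 4.82 and 5.1 in double knockout arrays, against 4.61, 4.36 and 4.5 in wild type arrays. Of the 12, 9 were positive and 3 negative in double knockout against wild type. At an unadjusted p of 0.05, 3 were higher, against 3.63% of all probes, while none passed. Neutrophil genes, 11 in number, averaged 4.62 in double knockout replicate 1, where the remaining 11 arrays ran over 3.74 to 4.13. In that array S100a9 read 7.09 and Csf3r 6.65. Over the list, 7 genes were positive and 4 negative in double knockout against wild type, with a median log2 difference of 0.16. Absorptive colonocyte genes averaged 13.4, 13.45 and 13.54 in double knockout, against 13.93, 14.29 and 13.92 in wild type. Of these 15 genes, 11 were negative and 4 positive. Smooth muscle genes averaged 12.86, 13.55 and 12.99 in double knockout, against 13.37, 13.93 and 13.77 in wild type. All 10 were negative, with a median log2 difference of -0.54 and 3 lower at an unadjusted p of 0.05, against 3.81% of all probes. Goblet cell genes averaged 15.88, 16.26 and 16.74 in double knockout, against 16.64, 16.67 and 16.79 in wild type, with 9 of 11 negative. Crypt base stem cell genes averaged 8.52, 8.43 and 8.34 in double knockout and 8.68, 8.41 and 8.38 in wild type, and none of 13 reached an unadjusted p of 0.05. The mean over 8 germinal centre B cell genes lay between 4.83 and 5.16 in all 12 arrays. That over 9 B cell genes ran over 3.56 to 5.34, highest in LAO1 knockout replicate 1 at 5.24 and IL4i1 knockout replicate 1 at 5.34.

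The LAO1 knockout was next set against wild type. Replication genes had a median log2 difference of 0.28, with 20 of 23 positive, and mitosis genes a median of -0.23, with 17 of 18 negative, where 51% of all probes were positive. None of the 41 passed limma's test, which 0.0045% of all probes passed, and every adjusted p was 1. Fen1 and Pcna reached an unadjusted p of 0.05, where 1.45% of all probes were higher, and 5 replication genes kept their groups apart, against 4.67% of all probes. Fen1 read 5.35, 5.56 and 5.4 in LAO1 knockout arrays, against 5.16, 4.66 and 4.37 in wild type (0.71 ± 0.28, SE). Pcna read 11.9, 11.92 and 11.97 in LAO1 knockout, against 11.35, 11.03 and 11.55 in wild type (0.62 ± 0.26, SE). Mcm6 read 8.83, 8.95 and 8.85 in LAO1 knockout, against 8.69, 7.9 and 7.88 in wild type. In all 3 the LAO1 knockout arrays lay within a narrow band just above the highest wild type array. Of the mitosis genes with the smallest p, Cenpf was at -0.53, Mki67 at -0.78 and Kif20a, a kinesin of cytokinesis, at -0.35, all with overlapping arrays. The mitosis median was -0.48 without wild type replicate 3 and -0.08 without wild type replicate 1. The count of 2 replication genes at an unadjusted p of 0.05 was 0 without wild type replicate 2 or LAO1 knockout replicate 2, 1 without LAO1 knockout replicate 1 or 3, and 4 without double knockout replicate 2. Of 11 macrophage and monocyte genes, 10 were negative and 1 positive, with a median of -0.4. At an unadjusted p of 0.05, 3 of them were lower, against 1.57% of all probes. All 9 B cell genes were positive, with a median of 0.35. The part of these cells in the values was not tested.

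The IL4i1 knockout stood out in the mitosis genes. All 18 had a lower mean than in wild type, with a median log2 difference of -0.92 and a range of -1.66 to -0.34. None passed limma's test, which 0.0135% of all probes passed, but 10 of 18 were lower at an unadjusted p of 0.05, against 4.34% of all probes, and in 12 every IL4i1 knockout array lay below every wild type array, against 5.16%. Replication genes had a median of 0.23 with 17 of 23 positive, against 53.1% of all probes. None of them reached an unadjusted p of 0.05, and 3 kept their groups apart, against 5.97% of all probes. When 1 array was left out the replication median ran over 0.14 to 0.32, and it was 0.21 without IL4i1 knockout replicate 2. Positive genes numbered 15 without wild type replicate 3 or IL4i1 knockout replicate 1. At an unadjusted p of 0.05, 2 were higher without wild type replicate 1. At that p, 1 was lower without wild type replicate 2 or IL4i1 knockout replicate 2.

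Cenpf had the smallest p, with 5.5, 4.9 and 4.75 in IL4i1 knockout arrays, against 6.09, 6.52 and 5.86 in wild type arrays (log2 difference -1.11 ± 0.26, SE, limma adjusted p = 0.406). Mki67 read 13.87, 12.56 and 12.92 in IL4i1 knockout, against 15.36, 14.77 and 14.2 in wild type (-1.66 ± 0.49, SE, adjusted p = 0.52), the lowest difference of the arm. Nusap1 read 7.4, 6.95 and 6.54 in IL4i1 knockout, against 7.94, 7.94 and 7.88 in wild type. In these 3 genes every IL4i1 knockout array was below every wild type array.

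Further along the mitotic pathway, Ccnb2, a cyclin B, was at -1.2, its partner kinase Cdk1 at -0.78 and Cdc20, which switches on the anaphase-promoting complex, at -0.9. The checkpoint kinases were at -1.24 for Bub1, -0.93 for Bub1b and -0.68 for Ttk. Of the spindle genes, Kif11, the motor that pushes the poles apart, was at -0.9, Tpx2, which activates Aurora A, at -0.99 and the kinetochore motor Cenpe at -0.97. Plk1 was at -0.96, Aurka at -0.42, Aurkb at -0.65, its partner Birc5 at -0.34, Kif20a at -0.73 and Top2a at -0.34. Birc5 and Top2a were among the 6 with overlapping arrays, with IL4i1 knockout replicate 2 above the wild type range in both. Of the replication genes with the smallest p, Mcm6 was at 0.66, Rfc5 at -0.49 and Rfc4 at 0.5, with adjusted p-values of 0.669, 0.675 and 0.7.

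**Figure D4:**
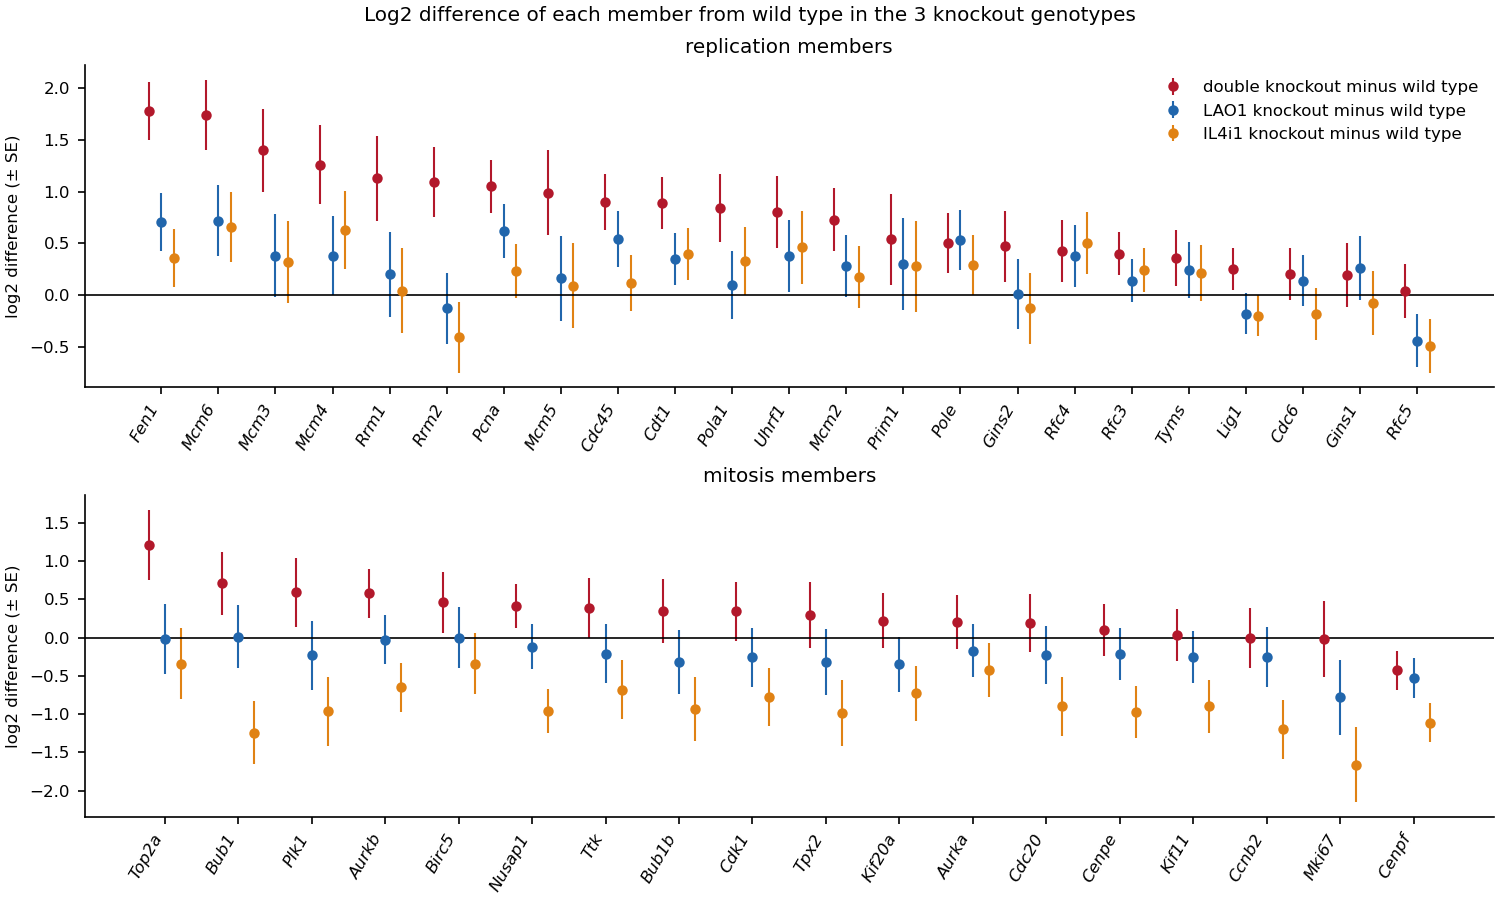
Fitted log2 difference from wild type (± SE) of each of 23 replication genes (top) and 18 mitosis genes (bottom) in double knockout, LAO1 knockout and IL4i1 knockout, ordered by the double knockout value. The IL4i1 knockout points of all 18 mitosis genes lie below 0, from -1.66 to -0.34, while double knockout points of all 23 replication genes lie above 0.

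The mitosis values of the IL4i1 knockout kept their sign in all 18 genes when any single array was left out. IL4i1 knockout replicate 3 was the lowest of 12 arrays in 13 of 18 mitosis genes, a tie included, and replicate 2 in 5. Without replicate 3 the median was -0.68 with 5 genes at an unadjusted p of 0.05, and without replicate 2, the array that stood apart, it was -0.94 with 8. Without wild type replicate 3 the median was -1.12 and 15 genes reached that p, while 6 did so without wild type replicate 1 or 2. Of 59 other mitosis genes, 53 were negative with a median of -0.48, and none passed. In that list 15 were lower at an unadjusted p of 0.05, against 4.34% of all probes. All IL4i1 knockout arrays lay below wild type in 23 genes of the list, against 5.16% of all probes. Those included the kinases Nek2 at -1.15 and Melk at -1.12 and the motor Kif15 at -1.1. Other replication genes had a median of 0.05, with Ccna2, the cyclin of S phase and later, at -1.38 and the checkpoint kinase Chek1 at 0.82. Macrophage and monocyte genes also stood lower, with list means of 6.81, 5.74 and 6.75 in IL4i1 knockout, against 8.05, 7.37 and 6.81 in wild type. Of these 11 genes, 7 were lower at an unadjusted p of 0.05, against 4.34% of all probes. Crypt base stem cell genes averaged 8.64, 8.08 and 8.23 in IL4i1 knockout and 8.68, 8.41 and 8.38 in wild type, and smooth muscle genes 13.37, 14.54 and 14.12 in IL4i1 knockout and 13.37, 13.93 and 13.77 in wild type. The part of these cells in the mitosis values was not tested.

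The double knockout was then set against each single knockout. These comparisons share the double knockout arrays with the first one, so their values are given side by side and not as added support. Against IL4i1 knockout, 1 member passed limma's test. Fen1 rose, with 6.74, 6.11 and 6.67 in double knockout arrays, against 5.48, 5.23 and 4.56 in IL4i1 knockout arrays, a log2 difference of 1.42 ± 0.28 (SE, 2.67-fold, adjusted p = 0.0439); 0.387% of all probes were called higher. The call was lost in 9 of 20 alternative settings, with adjusted p-values of 0.0255 to 0.231, among them without double knockout replicate 1.

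All 18 mitosis genes had a higher mean in double knockout than in IL4i1 knockout, as did 47% of all probes, with a median log2 difference of 1.16 and a range of 0.62 to 1.95. None passed the test, 16 reached an unadjusted p of 0.05, against 5.17% of all probes, and in 12 the groups did not overlap, against 6.05%. Bub1 read 9.4, 7.88 and 8.35 in double knockout, against 7.28, 5.82 and 6.68 in IL4i1 knockout (1.95 ± 0.41, SE, adjusted p = 0.0619). Nusap1 read 8.84, 8.12 and 8.02 in double knockout, against 7.4, 6.95 and 6.54 in IL4i1 knockout (1.36 ± 0.29, SE, adjusted p = 0.0619). Aurkb read 8.81, 7.38 and 7.68 in double knockout, against 6.83, 6.61 and 6.74 in IL4i1 knockout. In all 3 genes each double knockout array was above each IL4i1 knockout array, and leaving out double knockout replicate 1 gave a mitosis median of 0.73 with 18 of 18 positive and 8 at an unadjusted p of 0.05. That count was 10 without IL4i1 knockout replicate 3 and 15 without IL4i1 knockout replicate 2, the array that stood apart, with a median of 1.26. The median was 1.47 without double knockout replicate 2, with 18 of 18 at that p. Among 59 other mitosis genes, 2 passed, where 0.387% of all probes were called higher. Nek2, a centrosome kinase, rose by 1.68 (limma adjusted p = 0.0317) and Melk, a kinase of dividing cells, by 1.58 (adjusted p = 0.0425). These 2 calls were not followed through the alternative settings. Calls over all probes in this comparison went from 106 to 46 without double knockout replicate 1.

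Replication genes had a median of 0.53 in the same comparison, with 22 of 23 positive, 9 at an unadjusted p of 0.05 and 8 with groups apart. Over all probes the matching shares were 47%, 5.17% and 6.05%. Rrm2 read 9.26, 7.65 and 8 in double knockout, against 6.83, 7.05 and 6.55 in IL4i1 knockout (1.49 ± 0.34, SE, adjusted p = 0.0962), and Mcm6 read 10.67, 9.04 and 9.98 in double knockout, against 8.88, 8.73 and 8.83 in IL4i1 knockout (1.08 ± 0.34, SE, adjusted p = 0.257). Both kept the groups apart. Without double knockout replicate 1 the replication median was 0.25, with 5 genes at an unadjusted p of 0.05, and without double knockout replicate 2 it was 0.84, with 18. It was 0.47 without IL4i1 knockout replicate 2, with 7 such genes. Markers of other cells also differed here, and their part in these values was not tested. All 11 macrophage and monocyte genes had a higher mean in double knockout than in IL4i1 knockout. Their median log2 difference was 1, with 5 at an unadjusted p of 0.05, against 5.17% of all probes. All 10 smooth muscle genes were lower, with a median of -0.93 and 5 at that p, as were 11 of 15 absorptive colonocyte genes, with a median of -0.49 and 5 at that p. Of all probes, 4.66% were lower at that p.

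Against LAO1 knockout, the median log2 difference was 0.45 for replication genes, with 21 of 23 positive, and 0.58 for mitosis genes, with 18 of 18 positive, against 48.7% of all probes. None of the 41 passed the test, which 0.14% of all probes passed. At an unadjusted p of 0.05 there were 8 replication genes and 1 mitosis gene higher, against 3.51% of all probes, and 9 replication genes and no mitosis gene had all double knockout arrays above all LAO1 knockout arrays, against 6.25%. Fen1 read 6.74, 6.11 and 6.67 in double knockout, against 5.35, 5.56 and 5.4 in LAO1 knockout (1.07 ± 0.28, SE, adjusted p = 0.291). Rrm2 read 9.26, 7.65 and 8 in double knockout, against 7.13, 6.8 and 7.33 in LAO1 knockout (1.22 ± 0.34, SE). Mcm6 differed by 1.02 ± 0.34, Top2a by 1.23 ± 0.46, Aurkb by 0.62 ± 0.32 and Nusap1 by 0.53 ± 0.29 (SE). Without double knockout replicate 1 the medians were 0.26 for replication and 0.1 for mitosis, and 11 of 18 mitosis genes were positive. They were 0.74 for replication and 0.83 for mitosis without double knockout replicate 2. The 8 replication genes at an unadjusted p of 0.05 became 2 without double knockout replicate 1, 14 without double knockout replicate 2, 5 without LAO1 knockout replicate 1 or 2 and 4 without LAO1 knockout replicate 3. The 1 mitosis gene at that p became 0 without double knockout replicate 1 or LAO1 knockout replicate 3, 8 without double knockout replicate 2 and 2 without double knockout replicate 3.

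**Figure D5:**
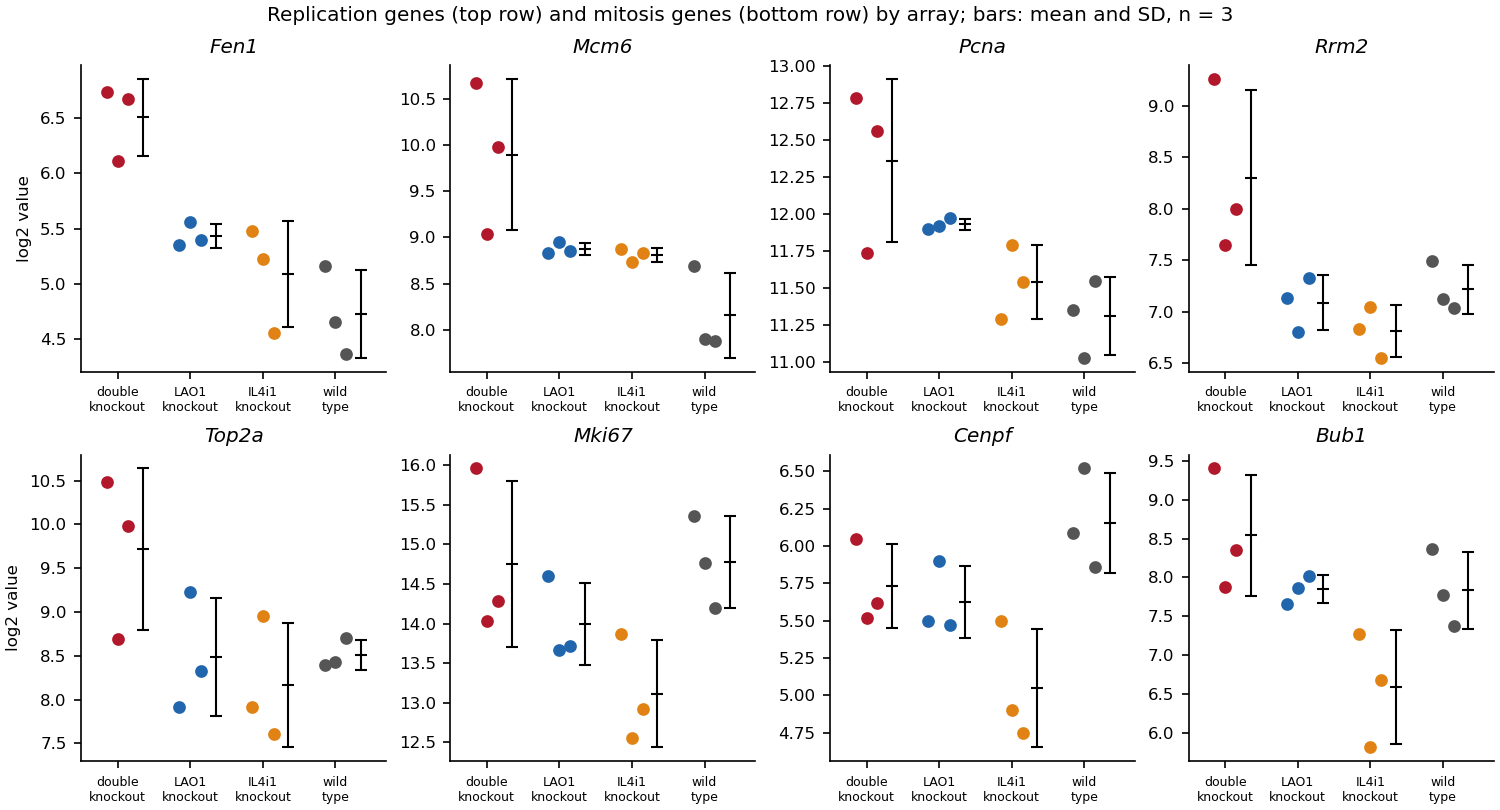
Log2 value of 4 replication genes (top) and 4 mitosis genes (bottom) in each of 12 arrays, with the mean and SD of 3 arrays per genotype (bars); each panel has its own axis. Fen1 in double knockout lies at 6.11 to 6.74, above the other 9 arrays at 4.37 to 5.56, while Mki67 in IL4i1 knockout lies at 12.56 to 13.87, below wild type at 14.2 to 15.36.

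The interaction asked whether the double knockout departed from the sum of the single deletions, as double knockout minus LAO1 knockout minus IL4i1 knockout plus wild type. All 18 mitosis genes were positive, against 46.5% of all probes, with a median of 1.35 and a range of 0.79 to 2.42; none passed limma's test, which 0.23% of all probes passed, and 16 reached an unadjusted p of 0.05, against 3.87% of all probes. Nusap1 was at 1.49 ± 0.4 (SE, adjusted p = 0.283), Mki67 at 2.42 ± 0.7 (adjusted p = 0.336) and Bub1 at 1.94 ± 0.58 (adjusted p = 0.378). For Mki67 the means behind this value were 14.76 in double knockout, 14 in LAO1 knockout and 13.12 in IL4i1 knockout, against 14.78 in wild type. Both single knockout means lay below those of the double knockout and of wild type. Replication genes had a median interaction of 0.25, with 18 of 23 positive and 3 at an unadjusted p of 0.05, which were Rrm2 at 1.62 ± 0.48, Rfc5 at 0.97 ± 0.37 and Lig1 at 0.62 ± 0.28 (SE). Without double knockout replicate 1 the interaction median was 1.01 for mitosis, with 18 of 18 positive and 9 at that p, and 0.04 for replication. It was 1.65 for mitosis without double knockout replicate 2, with 17 at that p, and 0.52 for replication, with 22 of 23 positive. The mitosis count was also 9 without wild type replicate 1 or IL4i1 knockout replicate 3, and 16 without IL4i1 knockout replicate 2. Without IL4i1 knockout replicate 2 the interaction median was 1.51 for mitosis and 0.27 for replication. The replication count of 3 became 1 without wild type replicate 1 or double knockout replicate 1, and its median was 0.38 and 0.44 without wild type replicate 2 or 3 and 0.4 without IL4i1 knockout replicate 1. In the same contrast all 11 macrophage and monocyte genes were positive, with a median of 1.67 and 6 at an unadjusted p of 0.05, and all 10 smooth muscle genes were negative, with a median of -0.6. Their part in the mitosis values was not tested.

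Across the 12 arrays, the genes outside all lists whose values ran most like the mean of the replication genes were Hnrnpab, an RNA-binding protein (Pearson r = 0.946, Spearman rho = 0.75), Cct5, a chaperonin subunit (0.936 and 0.476), and Psma3, a proteasome subunit (0.929 and 0.776). Next were Rnf126, Stoml2, Pa2g4, Ywhae, Acsl5, Gsr and Nsd2, with r of 0.911 to 0.925. These are descriptions over 12 arrays of 4 genotypes, and double knockout replicate 1 was the highest array for each of these genes as for the replication mean.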

How the data were processed

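The labels' protocols describe colon RNA prepared with ISOGEN II, of which 6 ug of total RNA gave the biotinylated cRNA for Affymetrix arrays. The authors deposited 1 value per probe and array. The submitters' processing notes name the Transcriptome Analysis Console, while its summary method, normalization and version are not given in the sources used here. The deposited values were taken as log2 from their range and were used without further scaling. Probes were named through the platform annotation: 19572 of 22206 had 1 gene symbol and 2634 had none here, and for a gene with several probes the one with the highest mean was used. With limma 3.58.1 in R 4.3.3, 1 model with a mean per genotype was fitted over all 12 arrays (8 residual degrees of freedom, empirical Bayes without trend), 6 contrasts were tested, and p-values were adjusted by Benjamini-Hochberg over all probes with a threshold of 0.05. The fit was tested on simulated data with noise drawn separately for each probe and array. For double knockout against wild type, 28.8% of probes given a log2 change of 1 passed, and 91% of those given 2. A member that did not pass can therefore still differ by about 1. The number of arrays limits the precision. Replicate numbers were not used as pairs in this model. Of 18 same-numbered correlations of deviations, 7 were over 0.1, and whether same-numbered arrays share an effect was not tested. Genes named with values by array were, per comparison, those of each arm with the smallest p, plus Fen1, Pcna, Mki67 and Top2a. The members, the other gene lists and the rule were chosen with earlier results of these data known. Alternatives covered the replicate block, the arrays in the fit, the moderation, normalization, a brightness filter and leaving out each array. Recounting genes at an unadjusted p of 0.05 and genes with groups apart without each array was an alternative chosen after seeing the data.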

Additional observations from a re-analysis of the deposited data

How the results depend on the processing

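Of 360 recomputed values of medians and counts of called members, 19 moved, a median by at least 1 SD of the arm's mean between replicate arrays or a count by over 1.5 times. The other 341 did not, although some changed much relative to their size or changed sign. Many medians could not move. The moderation settings, the replicate block and the fit of only the compared arrays leave the fitted differences unchanged. So does leaving out an array of a genotype outside the comparison. The count of 341 is therefore not a measure of stability. With 1 array left out, the mitosis median of double knockout minus wild type ran over -0.21 to 0.54, that of double knockout minus LAO1 knockout over 0.1 to 0.83 and the replication median of the interaction over 0.04 to 0.52. For double knockout against IL4i1 knockout, where 1 member was called, 4 were called with the replicate block (Fen1, Mki67, Bub1 and Nusap1), 0 with only the compared arrays in the fit, 2 with robust moderation (Fen1 and Nusap1) and 2 after quantile normalization (Fen1 and Bub1). Leaving out 1 array gave 0 to 7 calls, with 7 without double knockout replicate 2, 2 without IL4i1 knockout replicate 1, and 0 without wild type replicate 2, any LAO1 knockout array, IL4i1 knockout replicate 2 or 3, or double knockout replicate 1 or 3. For double knockout against wild type, with 0 called, robust moderation called 1 (Fen1), and leaving out 1 array gave 0 to 3, with 1 without IL4i1 knockout replicate 3 and 3 without double knockout replicate 2. For the interaction, with 0 called, the replicate block called 1 (Mki67, adjusted p = 0.0164). The LAO1 knockout mitosis median of -0.23 ran over -0.48 to -0.08 when 1 array was left out. Mki67 in double knockout minus wild type, at -0.02, was 0.02 after quantile normalization and ran over -0.62 to 0.34 when 1 array was left out. Plk1 in the same comparison ran over -0.06 to 0.91, with -0.06 without double knockout replicate 1. Over all probes, double knockout against IL4i1 knockout had 106 calls, 166 with the replicate block, 33 with only the compared arrays, and 46 to 174 when 1 array was left out; double knockout against wild type had 5 calls, 6 with the block, 10 with robust moderation, 2 with only the compared arrays, and 1 to 38 when 1 array was left out. IL4i1 knockout against wild type had 3 calls and 6 with robust moderation, and double knockout against LAO1 knockout had 31 calls and 11 to 68 when 1 array was left out. Same-numbered correlations of deviations ran over -0.142 to 0.218, and whether same-numbered arrays share an effect was not tested. A brightness filter removed Gins1, Gins2 and Cdc6. Taking the mean of a gene's probes changed nothing, since each member had 1 probe. The cause of these shifts was not tested. Signal over background was not given, so dim members such as Gins1 carry an unknown share of background.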
